A study of Rattus norvegicus with 6 samples.

Results

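The genes of DNA replication origins and forks were examined in NRK-52E cells, an established line of rat kidney epithelial cells, after exposure to streptozotocin (STZ), a nitrosourea that alkylates DNA. The list held 47 genes that were chosen for their function, with earlier results of these data known. Each matched 1 of the 18930 rows of the count table by its symbol. Some other symbols have more than 1 row, and each row counts as a gene in shares of all genes tested. RNA of cells kept for 24 h in 10 mM of STZ (STZ, 3 samples) was compared with RNA of vehicle-treated cells (Control, 3 samples), and both groups were wild-type cells of this 1 line. The sources used here do not say whether the samples of a group came from separate cultures. The p-values given rest on the variation between these samples, which may leave out variation between cultures. Each value is taken from bulk RNA, in which fewer replicating cells and less RNA per cell cannot be told apart.

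Before S phase, the origin recognition complex (ORC), Cdc6 and Cdt1 load the ring of MCM subunits onto origins, a step called licensing. The kinase Cdc7 with Dbf4 then triggers the joining of Cdc45 and GINS to that ring, which makes the active CMG helicase. At the fork, DNA polymerase alpha with primase lays down primers. Polymerases delta and epsilon extend the new strands with the sliding clamp PCNA, which the RFC complex loads, and RPA coats the single strands. Most of these genes are known to be transcribed under E2F factors as cells enter the cycle.

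The libraries held between 10430924 and 15191349 counted reads. Pairs of replicates within a group differed beyond counting noise (chi-square over its degrees of freedom, 1.85 to 2.54). All 47 genes passed the filter on low counts, and the smallest mean of any of them was 160 normalized counts. Normalized counts are reads scaled to a common library size by edgeR's TMM method. Cdkn1a, the p21 gene induced by p53, averaged 2883 ± 52.2 normalized counts in Control (SD, n = 3) and 16154 ± 286 in STZ (SD, n = 3), and the groups did not overlap. Of the epithelial markers, Krt8 had 11691 to 24040 reads per sample and Cdh1 16 to 35, while Krt18 had at most 3, and Epcam and Krt19 were not analysed here. The proximal tubule markers Lrp2, Cubn, Slc34a1 and Slc5a2 never exceeded 10 reads in a library, and Aqp1 had 66 to 167. Mesenchymal genes were expressed too, with 20083 to 28027 reads of Vim. The summed normalized count of the 5 fibroblast and smooth muscle markers, most of it Vim, was 24807 to 27570 in Control and 23864 to 24284 in STZ. Of these 5 markers, 4 were tested and all 4 were lower in STZ, against 25.1% of all genes tested. The summed count of the 5 proximal tubule markers, most of it Aqp1, was 122 to 205 in Control and 71.4 to 85.0 in STZ. That of the 3 epithelial markers analysed, nearly all of it Krt8, was 13757 to 14685 and 19897 to 20100. That of the 4 blood and endothelial markers was 7.92 to 27.0 and 22.7 to 26.2. Of the epithelial markers, Krt8 was higher in STZ (log2 fold change 0.48) and Cdh1 was lower (-0.69), and Aqp1, the 1 proximal tubule marker tested, was lower (-1.25). The part of these marker differences in the results was not tested.

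With STZ, the replication genes fell more often than they rose, by small amounts. Of the 47 genes, 20 were lower, 4 were higher and 23 were not called, where a call means an adjusted p-value under 0.05. Among all 11870 genes tested, the same rule called 50.9%, with 25.1% lower and 25.9% higher. The called share of the replication genes was close to this, at 51.1%, with 42.6% lower and 8.51% higher. The median log2 fold change (STZ against Control) was -0.085 over the 47 genes and -0.01 over all genes tested. It was -0.13 when Control replicate 1 was left out. Without STZ replicate 2 the number of higher genes was 7 instead of 4. Falls called by the test ranged from -0.73 to -0.12 on the log2 scale and rises from 0.17 to 0.30.

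No replication gene passed the study's full criterion for differential expression, which adds an absolute log2 fold change over 1. By edgeR's quasi-likelihood test 0 of 47 met it, also with an unadjusted p under 0.05, and 0 met it with DESeq2 or limma-voom, against 3.37% of all genes tested. The thresholds are the study's, but the filter and fit are those used here, and this share differs from the study's own count. When a fold change beyond 1.2 was itself tested, by a method added after the data had been seen, 8 of the 47 genes were lower and 0 were higher. These 8 were Pcna, Mcm6, Mcm7, Pold1, Pole2, Gins1, Pola2 and Pold2. In that test 7.26% of all genes were lower and 9.19% higher. The samples of the groups did not overlap in 26 of the 47 genes, or 55.3%, against 56.3% of all genes tested. In 21 of the 26 all STZ samples lay below all Control samples (27.7% among all genes), and in 5 they lay above (28.6%). Summed over the 47 genes, reads made up 0.393%, 0.405% and 0.414% of each Control library and 0.356%, 0.356% and 0.358% of each STZ library, so the groups did not overlap in this sum. These parts are of library totals without TMM scaling, where the median log2 fold change of all genes tested was -0.04. Genes with many reads, such as Pcna and Mcm6, weigh most in the sum.

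**Figure D1:**
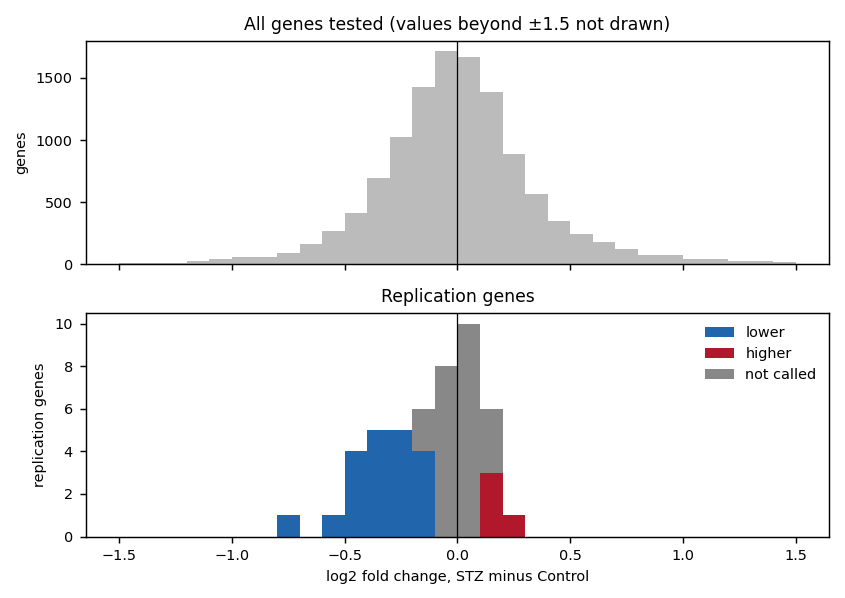
Histograms of log2 fold changes (x axis, STZ minus Control, bins of 0.1) for all genes tested (top) and for the 47 replication genes (bottom), coloured by call. The 20 lower genes reach to -0.73 and the 4 higher genes to 0.30.

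**Figure D2:**
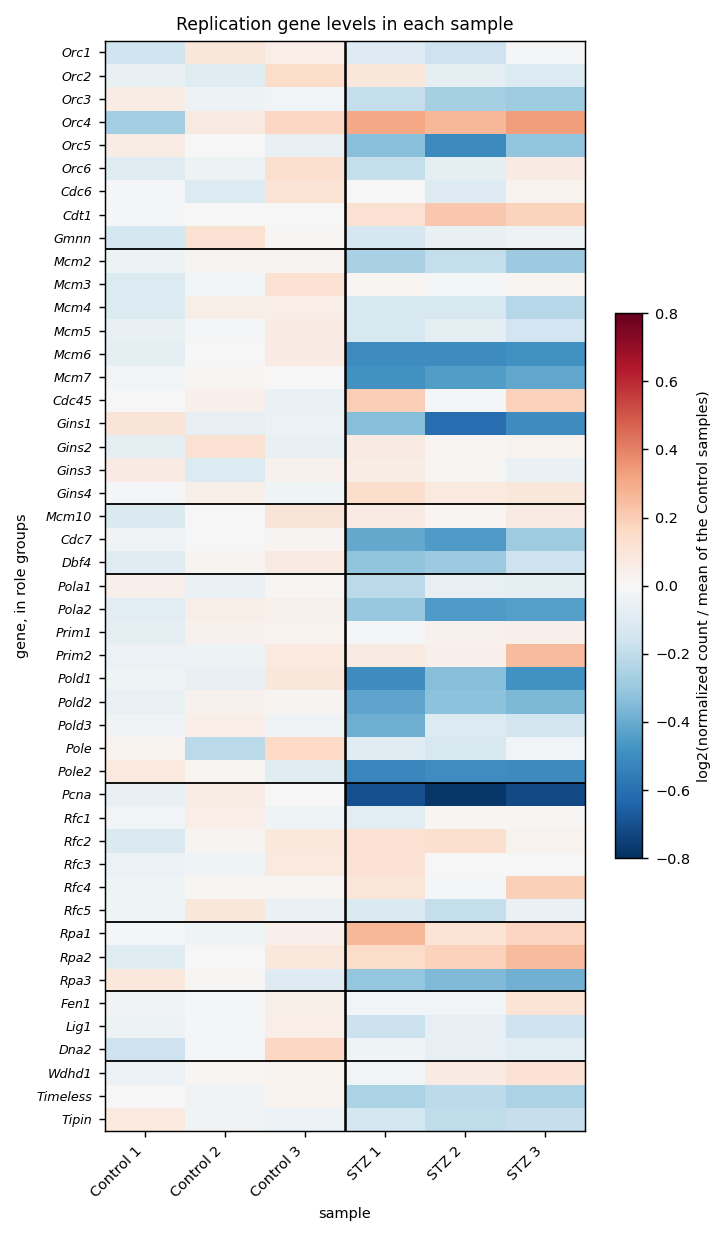
Level of each replication gene (rows, in role groups separated by lines) in each of the 6 samples (columns), as log2 of the normalized count over the Control mean. Pcna, Mcm6, Mcm7, Pold1, Pole2 and Gins1 are blue in all 3 STZ samples, and the Rfc rows stay near white.

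The sequences upstream of 4 genes are shown because they carry the clearest changes: Pcna, Mcm6 and Mcm7 had the smallest p-values among lower genes, and Rpa1 had the smallest among higher genes. Each is the 250 bases before the transcription start in RefSeq (build GRCr8, whereas the reads were mapped to Rnor6), written 5′ to 3′ along the gene. Capitals mark matches on either strand to the E2F motif (TTTCCCGC, TTTCGCGC, TTTGCCGC or TTTGGCGC), to the CCAAT box (CCAAT, which reads ATTGG on the other strand) and to the CHR element (TTTGAA).
Pcna, chr3:139955821-139956070, minus strand: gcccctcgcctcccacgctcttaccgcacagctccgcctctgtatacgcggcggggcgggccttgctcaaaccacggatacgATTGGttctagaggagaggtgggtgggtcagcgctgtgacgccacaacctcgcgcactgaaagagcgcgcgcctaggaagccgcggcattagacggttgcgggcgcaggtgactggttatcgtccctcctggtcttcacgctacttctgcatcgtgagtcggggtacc
Mcm6, chr13:42404353-42404602, minus strand: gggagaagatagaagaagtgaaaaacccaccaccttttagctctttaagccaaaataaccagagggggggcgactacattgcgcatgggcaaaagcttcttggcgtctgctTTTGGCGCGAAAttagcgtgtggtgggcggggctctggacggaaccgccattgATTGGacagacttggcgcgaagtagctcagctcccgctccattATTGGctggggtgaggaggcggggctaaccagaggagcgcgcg
Mcm7, chr12:22163179-22163428, minus strand: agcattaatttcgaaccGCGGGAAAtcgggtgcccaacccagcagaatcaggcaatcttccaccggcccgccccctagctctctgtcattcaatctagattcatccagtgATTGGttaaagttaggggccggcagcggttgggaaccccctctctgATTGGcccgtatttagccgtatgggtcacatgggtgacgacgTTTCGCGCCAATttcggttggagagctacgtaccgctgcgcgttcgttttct
Rpa1, chr10:60698280-60698529, minus strand: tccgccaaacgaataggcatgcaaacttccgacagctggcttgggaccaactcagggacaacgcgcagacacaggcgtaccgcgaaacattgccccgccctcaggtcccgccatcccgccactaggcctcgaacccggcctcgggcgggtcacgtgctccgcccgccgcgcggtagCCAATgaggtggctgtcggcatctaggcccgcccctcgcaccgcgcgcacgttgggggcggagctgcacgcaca
The upstream stretch of Mcm6 held 2 overlapping E2F matches on opposite strands and 2 CCAAT boxes. That of Mcm7 held 2 E2F matches, 1 of them sharing bases with a CCAAT box, and 3 CCAAT boxes in all. Those of Pcna and Rpa1 each held 1 CCAAT box and no E2F match with these letters. Promoters were found for 41 of the 47 genes. At least 1 E2F match was present in 11 of the 41 (26.8%), against 3.63% of 8698 promoters of genes tested and 1.73% of all 33469 promoters in the table. Among the replication genes the match was present in 8 of 18 lower genes, 3 of 20 that were not called and 0 of 3 higher genes. The 8 lower genes with a match were Orc3, Orc5, Mcm2, Mcm5, Mcm6, Mcm7, Gins1 and Tipin. The 3 genes not called with a match were Gins3, Pola1 and Dna2. Of the genes lower beyond 1.2-fold, Mcm6, Mcm7 and Gins1 had a match, and Pcna, Pold1, Pole2, Pola2 and Pold2 had none. CCAAT boxes were found in 19 of the 41 (46.3%, against 36.3% of promoters of genes tested) and the CHR element in 4 (9.76%, against 9.88%). By call, CCAAT boxes were in 7 of 18 lower genes, 10 of 20 not called and 2 of 3 higher genes. For the CHR element these numbers were 3 of 18, 1 of 20 and 0 of 3. These matches describe letters in this window and were not tested.

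The sliding clamp gene fell most. Pcna, which encodes the ring that tethers polymerases delta and epsilon to DNA, had 3317, 3594 and 3455 normalized counts in the Control samples, in the order of their replicate numbers, and 2125, 2019 and 2095 in the STZ samples. Every STZ sample lay far below every Control sample. The log2 fold change was -0.73, with a standard error (SE) of 0.04 and an adjusted p of 3.7e-19. Pcna thus fell by 39.8%, with a 95% interval of the log2 fold change from -0.81 to -0.65. Of the 11870 genes tested, 303 had a more negative log2 fold change. The build GRCr8 names 3 pseudogenes of Pcna, and since only uniquely mapped reads were counted, reads that match a copy equally well are missing from its count.

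The genes of the clamp loader were not called, whereas 50.9% of all genes tested were. Of Rfc1 to Rfc5, which encode the 5 subunits of replication factor C, 0 were called by edgeR's quasi-likelihood test, 0 had an unadjusted p under 0.05, and 0 were called by DESeq2 or limma-voom. Their log2 fold changes lay between -0.11 for Rfc5 and 0.10 for Rfc4. The 95% intervals ran from -0.12 to 0.08 for Rfc1, the large subunit, and from -0.09 to 0.17 for Rfc3, and a fall of the size seen in Pcna lay outside the intervals of all 5 genes. Adjusted p-values of the 5 genes were 0.0308 to 0.991 over the alternatives. Rfc5 was lower with library size only (adjusted p = 0.0308), and Rfc4 was higher without STZ replicate 2 (adjusted p = 0.0433). The number of Pcna normalized counts per Rfc1 count was 3.43, 3.53 and 3.61 in the Control samples and 2.30, 2.04 and 2.13 in the STZ samples. This ratio, like those given further on, was chosen after the values were seen and was not tested.

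**Figure D3:**
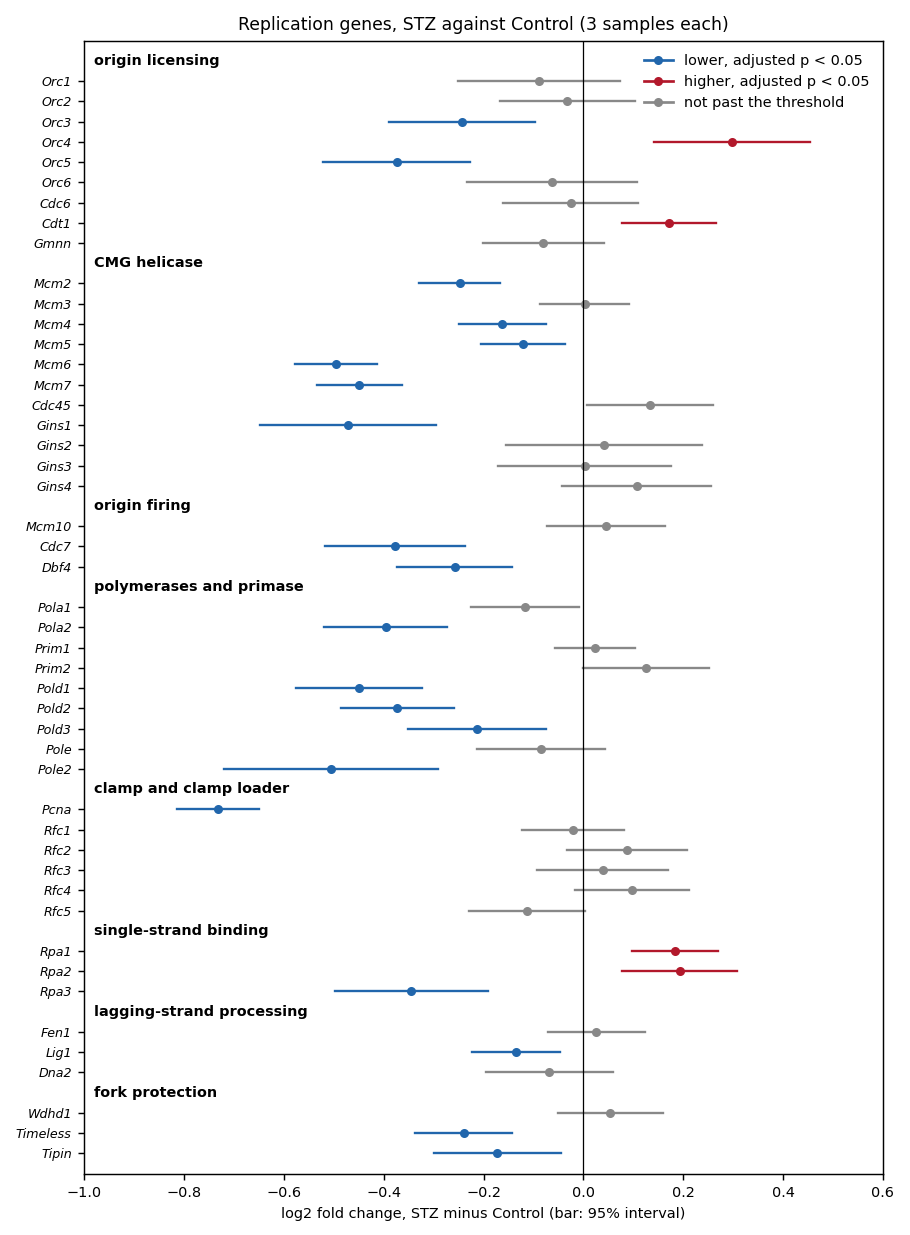
Log2 fold change (x axis, STZ minus Control, dot) with its 95% interval (bar) for each replication gene, in 8 role groups and coloured by call. Pcna lies apart at -0.73 while the intervals of all 5 Rfc genes include 0, and Rpa1 and Rpa2 lie on the other side of 0 from Rpa3.

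Within the CMG helicase some subunits fell and others were not called. Of its 11 genes, 6 were lower, 0 were higher and 5 were not called, and the median log2 fold change was -0.12. The called share was 54.5%, all of it lower, against 50.9% called and 25.1% lower among all genes tested. The lower genes were Gins1 and 5 of the 6 genes of the MCM ring, which unwinds DNA. Mcm6 had 3009, 3184 and 3320 normalized counts in the Control samples and 2240, 2240 and 2269 in the STZ samples. The 3 STZ values were almost equal and lay well below the Control range. The log2 fold change of Mcm6 was -0.50 (SE 0.04, adjusted p = 1.1e-13), a level that fell by 29.1%.

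Mcm7, which forms the ring together with Mcm6, followed closely with 2187, 2241 and 2226 normalized counts in Control and 1585, 1630 and 1659 in STZ. Its log2 fold change was -0.45 (SE 0.04, adjusted p = 3.7e-12). Mcm2, Mcm4 and Mcm5 fell by less, with log2 fold changes of -0.25, -0.16 and -0.12. The call of Mcm5 was lost without Control replicate 3 (adjusted p = 0.104), without STZ replicate 1 (0.0532) or without STZ replicate 3 (0.0785). Mcm3 had 2518, 2675 and 2959 normalized counts in Control and 2741, 2691 and 2744 in STZ. All 3 STZ values of Mcm3 lay within the Control range, and its log2 fold change was 0.00, with a 95% interval from -0.09 to 0.09.

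The make-up of the MCM reads differed between the groups. Mcm6 supplied 19.0%, 19.1% and 19.2% of the summed normalized counts of the 6 ring genes in Control and 15.9%, 15.7% and 16.3% in STZ. The part of Mcm3 was 15.9%, 16.0% and 17.2% in Control and 19.5%, 18.8% and 19.7% in STZ. Thus Mcm6 took a larger part than Mcm3 in every Control sample and a smaller part in every STZ sample. These parts are of read counts and were not divided by transcript length, so they compare samples and not the abundance of the subunits.

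**Figure D4:**
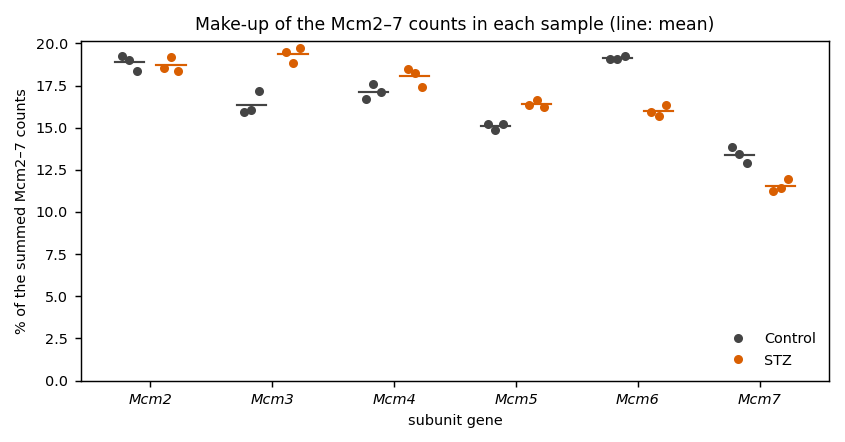
Part of the summed normalized counts of the 6 MCM ring genes taken by each gene (y axis, percent) in the 3 Control and 3 STZ samples (dots, with the mean as a line). The parts of Mcm6 and Mcm7 are lower and those of Mcm3 and Mcm5 higher in all STZ samples, and those of Mcm2 and Mcm4 overlap.

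Of the other CMG subunits, Gins1 fell. The 4 GINS proteins form a single tetramer, and Gins1 had 326, 290 and 294 normalized counts in Control and 240, 199 and 214 in STZ. All STZ values were below all Control values, with a log2 fold change of -0.47 (SE 0.09, adjusted p = 1.7e-05). Gins2, Gins3 and Gins4 had log2 fold changes of 0.04, 0.00 and 0.11, and their 95% intervals had lower ends of -0.16, -0.17 and -0.04. For each Gins2 count there were 1.82, 1.41 and 1.63 Gins1 counts in Control and 1.21, 1.05 and 1.12 in STZ. Cdc45, which joins the ring with GINS, had a log2 fold change of 0.13 (adjusted p = 0.0723) and passed the threshold only without STZ replicate 2 among the alternatives (adjusted p = 0.0145).

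Among the 3 origin firing genes, both parts of the initiating kinase fell. The lower share was thus 66.7%, against 25.1% among all genes tested. The catalytic subunit Cdc7 had 455, 465 and 471 normalized counts in Control and 349, 338 and 380 in STZ, and the groups were clearly apart. Its log2 fold change was -0.38 (SE 0.07, adjusted p = 1.4e-05). Dbf4, the regulatory subunit that activates Cdc7, had a log2 fold change of -0.26 (SE 0.06, adjusted p = 2.1e-04). Mcm10, a scaffold needed to start unwinding, was at 0.05, with an interval from -0.07 to 0.16.

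The licensing genes moved in both directions. Of 9, 2 were lower, 2 were higher and 5 were not called, and the median was -0.06. The called share was 44.4%, against 50.9% among all genes tested. Orc5, a subunit of the origin recognition complex, had 441, 424 and 407 normalized counts in Control and 337, 298 and 341 in STZ, a log2 fold change of -0.37 (SE 0.07, adjusted p = 3.7e-05). Orc3 fell by 15.5%, with a log2 fold change of -0.24 (adjusted p = 0.0045). In the same complex Orc4 was higher, with 305, 388 and 413 normalized counts in Control and 458, 443 and 465 in STZ. The STZ values of Orc4 were close together, whereas Control replicate 1 lay well below the other Control samples. Its log2 fold change was 0.30 (SE 0.08, adjusted p = 0.0013) and was 0.18 without Control replicate 1, where the adjusted p was 0.0435. In GRCr8 the span of Orc4 overlaps Acvr2a and Mbd5 and that of Orc3 overlaps Rars2. Whether reads were counted by strand is not given in the sources used here, so reads of such pairs may not be fully separated.

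Orc1, Orc2 and Orc6 had log2 fold changes of -0.09, -0.03 and -0.06, none past the threshold. Cdt1, the loader that brings the MCM ring to ORC, was higher. It had 1111, 1125 and 1125 normalized counts in Control and 1219, 1301 and 1268 in STZ, a log2 fold change of 0.17 (SE 0.05, adjusted p = 0.0022). Gmnn encodes geminin, which binds Cdt1 and blocks a second round of licensing, and its log2 fold change was -0.08 (95% interval -0.20 to 0.04). The Cdt1 to Gmnn ratio of normalized counts was 1.76, 1.49 and 1.61 in Control and 1.92, 1.95 and 1.88 in STZ, so the groups did not overlap. Cdc6, the other loader, was at -0.03 (95% interval -0.16 to 0.11).

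Of DNA polymerase delta, the 3 subunits among the 47 genes fell. Among all genes tested, 50.9% were called and 25.1% were lower. The small subunit Pold4, from a further list described at the end, was not called (log2 fold change 0.13, adjusted p = 0.214). Polymerase delta makes most of the lagging strand and works with PCNA. Pold1, its catalytic subunit, had 655, 643 and 712 normalized counts in Control and 472, 529 and 478 in STZ, and no STZ sample reached the Control range. The log2 fold change of Pold1 was -0.45 (SE 0.06, adjusted p = 7.7e-08). Pold2 was at -0.37 (SE 0.06, adjusted p = 3.8e-07) and Pold3 at -0.21 (SE 0.07, adjusted p = 0.0087). Pold3 lost its call without Control replicate 2 (adjusted p = 0.0512) or without STZ replicate 1 (0.145), and without the latter its log2 fold change was -0.13.

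The other polymerases were split between subunits. Of polymerase epsilon, which copies the leading strand, the accessory subunit Pole2 had 198, 190 and 176 normalized counts in Control and 131, 133 and 132 in STZ. The 3 STZ values of Pole2 were nearly the same, and its log2 fold change was -0.51 (SE 0.11, adjusted p = 1.0e-04). In GRCr8 the span of Pole2 overlaps Klhdc1, so their reads may not be fully separated. The catalytic Pole was at -0.09, with a 95% interval from -0.21 to 0.04. It was past the threshold without Control replicate 2 (log2 fold change -0.18, adjusted p = 0.0174). Of the small epsilon subunits, from the further list, Pole3 was higher in both of its rows. Its log2 fold changes were 0.24 (adjusted p = 3.0e-04) and 0.42 (adjusted p = 0.017), while Pole4 was not called, at 0.01. In polymerase alpha-primase, which lays down the primers, Pola2 was lower (log2 fold change -0.40, SE 0.06, adjusted p = 6.4e-07). The catalytic Pola1 was at -0.12 (adjusted p = 0.0647) and passed with library size only (0.0171), with the upper quartile (0.0294) and without STZ replicate 2 (0.0499). The primase genes Prim1 and Prim2 were at 0.02 and 0.13. Prim2 passed without Control replicate 3 (adjusted p = 0.0395) or without STZ replicate 2 (0.0475). Over the 9 polymerase and primase genes among the 47, 5 were lower, 0 were higher and 4 were not called, with a median of -0.21. The called share was 55.6%, all of it lower, against 50.9% called and 25.1% lower among all genes tested.

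The 3 subunits of RPA, the heterotrimer that protects single-stranded DNA, were all called, in opposite directions. Among all genes tested, 50.9% were called. Rpa1, the large subunit with the main DNA-binding domains, had 2240, 2192 and 2317 normalized counts in Control and 2705, 2426 and 2534 in STZ. Rpa1 was higher in each STZ sample, with a log2 fold change of 0.18 (SE 0.04, adjusted p = 3.7e-04). Rpa2, whose protein is phosphorylated after DNA damage, rose to a like extent, with 640, 685 and 726 normalized counts in Control and 756, 776 and 815 in STZ (log2 fold change 0.19, SE 0.06, adjusted p = 0.0043). Rpa3, the small subunit, had 394, 374 and 347 in Control and 300, 291 and 284 in STZ. Its STZ values were all below the lowest Control value, and its log2 fold change was -0.34 (SE 0.08, adjusted p = 2.1e-04). For each Rpa1 count there were 0.176, 0.170 and 0.150 Rpa3 counts in Control and 0.111, 0.120 and 0.112 in STZ. GRCr8 names 2 pseudogenes and 1 like gene of Rpa3 and 1 pseudogene of Rpa1, and 12 of the 47 genes have such a copy.

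**Figure D5:**
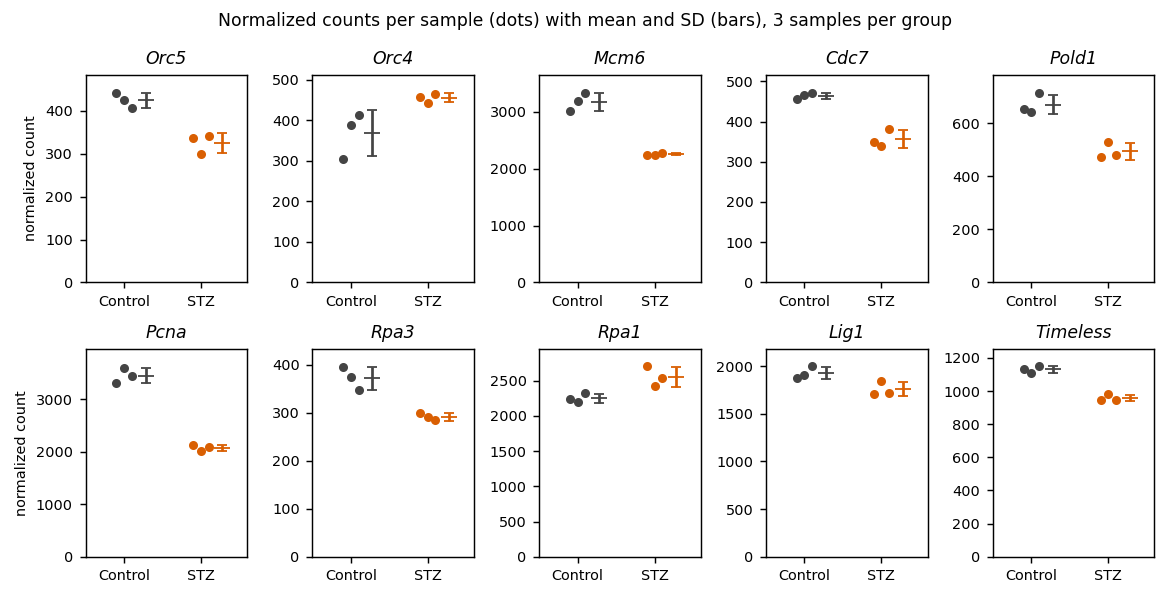
Normalized counts (y axis, from 0) of the 10 genes with the smallest p among called genes of their role group and direction, in 3 Control and 3 STZ samples (dots), with mean and SD (bars). The groups do not overlap in any of the 10 panels, which the choice by small p favours. Among all genes tested, 56.3% did not overlap. Orc4 and Rpa1 are higher in STZ and the other 8 are lower.

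Of the 3 genes that finish the lagging strand, 1 fell (33.3%, against 25.1% lower among all genes tested). Lig1, the ligase that seals Okazaki fragments, had 1875, 1904 and 2003 normalized counts in Control and 1710, 1845 and 1722 in STZ, a log2 fold change of -0.14 (SE 0.04, adjusted p = 0.0090). STZ replicate 2 lay close to the lowest Control sample. The call was lost without Control replicate 3 (adjusted p = 0.0571), without STZ replicate 1 (0.0651) or without STZ replicate 3 (0.0545). In GRCr8 Lig1 overlaps Zswim9. Fen1, the flap nuclease acting before Lig1, was at 0.03 (95% interval -0.07 to 0.12), and the helicase-nuclease Dna2 at -0.07 (95% interval -0.20 to 0.06).

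Of the 3 fork protection genes, both partners of the Timeless-Tipin complex, which couples the helicase to the polymerases, were lower. The lower share was thus 66.7%, against 25.1% among all genes tested. Timeless had 1130, 1110 and 1151 normalized counts in Control and 947, 980 and 948 in STZ. The groups lay well apart, with a log2 fold change of -0.24 (SE 0.05, adjusted p = 5.4e-05). Tipin was at -0.17 (SE 0.06, adjusted p = 0.020). Its call was lost with DESeq2 (adjusted p = 0.0700), without Control replicate 1 (0.110), without STZ replicate 2 (0.0625) or without STZ replicate 3 (0.0592). Wdhd1, which links the helicase to polymerase alpha, was at 0.05 (95% interval -0.05 to 0.16).

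Over the 23 genes that were not called, log2 fold changes lay between -0.12 and 0.13, and the 95% intervals reached from -0.25 (Orc1) to 0.26 (Cdc45) at most. Changes beyond these bounds lay outside every interval, and smaller ones may have been missed. Across the 47 genes, which share the libraries and are not independent, Pearson's r between the mean log2 level and the log2 fold change was -0.03 and Spearman's rho was 0.02.

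A further list of 32 replication genes outside the 47, with regulators of firing, alternative clamp loaders, small polymerase subunits, RNase H, topoisomerases and chromatin assembly factors, had 29 genes tested in 30 rows, since Pole3 has 2 rows. Of the rows, 8 were lower, 5 were higher and 17 were not called, and the absolute log2 fold changes of the 30 rows were at most 0.50. The called share was 43.3% (26.7% lower and 16.7% higher), against 50.9% among all genes tested. Top2a, the topoisomerase that untangles replicated DNA, had the smallest p. It had 6605, 6440 and 6748 normalized counts in Control and 5395, 5474 and 5489 in STZ, a log2 fold change of -0.28 (SE 0.04, adjusted p = 1.6e-08). Mcm8, an MCM relative that works in recombination and not in the ring, led the higher genes with 189, 188 and 182 in Control and 271, 289 and 228 in STZ (log2 fold change 0.49, SE 0.10, adjusted p = 4.1e-05).

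The other lower genes of this list were Dscc1, an alternative clamp loader subunit, at -0.50, Rnaseh2b, a subunit of the enzyme that removes ribonucleotides, at -0.42, Ticrr, needed for origin firing, at -0.34, and Mcmbp, an MCM-binding protein, at -0.29. The chromatin assembly genes Asf1b, Ssrp1 and Supt16h were at -0.28, -0.28 and -0.22. Higher genes were Dtl, which directs Cdt1 to degradation on PCNA-bound DNA, at 0.22, Chtf8 at 0.13, and both rows of Pole3, at 0.24 and 0.42. Rnaseh2a had at most 5 reads per row and sample and was not tested, and Mcm9 and Rnaseh2c were not analysed here.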

How the data were processed

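RNA of 3 Control and 3 STZ samples of NRK-52E cells was made into TruSeq stranded mRNA libraries. The authors aligned the single-end reads to Rnor6 (STAR 2.7.10a), counted those with a unique position by gene (featureCounts, Subread), and deposited the raw counts without normalization.

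Here, counts were filtered (filterByExpr), scaled by TMM and compared by the quasi-likelihood test of edgeR 4.0.16 (R 4.3.3), and p-values were adjusted by Benjamini-Hochberg over the 11870 tested genes. Genes were called at an adjusted p-value under 0.05. The standard error of a log2 fold change was derived from the F statistic, and the 95% intervals use the total degrees of freedom of that test. The steps were tested on simulated data with known changes. Of 50 genes changed 1.2-fold, 28 were recovered, and of 50 changed 1.5-fold, 44 were, while 9 unchanged genes were called. Far fewer genes were changed in the simulation than were called in the data. With 3 samples against 3, an exact two-sided permutation test of 1 gene cannot go below p = 0.1, so none is given.

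The replication genes and lists were chosen with earlier results of these data known. Values in every sample are given for the called gene with the smallest p in each direction in each of 8 role groups, while Mcm3, Mcm7, Gins1, Cdt1, Pole2 and Rpa2 were added after their values were seen. Alternatives were other filters, scalings and tests (DESeq2 1.42.0, limma-voom 3.58.1), a replicate block, and each sample left out. Promoters came from RefSeq (GRCr8), which held 41 of the 47 genes. All 47 were found in its annotation, 18 overlapping another gene and 7 of these a protein-coding one. Protein sequences were not used here.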

Additional observations from a re-analysis of the deposited data

How the results depend on the processing

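Of the 47 replication genes, 37 kept their call, or lack of one, under all 14 alternatives listed in the methods. Of the 24 called genes, 20 kept it, the exceptions being Lig1, Mcm5, Pold3 and Tipin. No called gene changed direction in any of the 658 refits, of which 637 left the outcome unchanged, 12 made it weaker and 9 stronger. The number of lower genes was 17 to 20 with 1 sample left out, and that of higher genes 4 to 7, the 7 without STZ replicate 2. With glmTreat against a minimum fold of 1.2, a method added after the data were seen, 8 were lower and 0 higher, and in the further list 1 was lower and 1 higher, because this test demands a larger change. The median log2 fold change was -0.12 with library size only, where the median of all genes tested was -0.04 instead of -0.01, and -0.13 to -0.060 with 1 sample left out. The number of genes past both thresholds was 0 under every alternative, and the counts of the further list were 8 to 9 lower and 4 to 5 higher with 1 sample left out.

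Same-numbered Control and STZ samples had correlations of 0.0338, -0.0338 and 0.105 between their deviations from the group means over 10341 genes, and were therefore not treated as pairs. A replicate block gave 20 lower and 4 higher replication genes, 8 and 5 in the further list, and a median of -0.085. Control replicate 1 deviated more like STZ replicate 2 (0.0828) than like its own number. At this depth the 23 genes not called had 95% intervals reaching from -0.25 to 0.26, which limits what can be said of smaller changes.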
